A study of Mus musculus with 6 samples.

Results

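Acute phase proteins are plasma proteins that the liver secretes in larger amounts during inflammation. Here 10 mouse genes of this class were followed in diseased livers with and without a guide RNA against Prdx2, the gene of the peroxide-reducing enzyme peroxiredoxin 2. The 10 genes are the serum amyloid A genes Saa1, Saa2 and Saa3, lipocalin 2 (Lcn2), the orosomucoid genes Orm1, Orm2 and Orm3, haptoglobin (Hp), hemopexin (Hpx) and C-reactive protein (Crp). They were found by gene symbol among 52459 genes of the count table, each matched 1 row, and all 10 were among the 17032 genes with enough reads to be tested.

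RNA-Seq was performed on whole liver of 6 male Alb-Cre/Cas9 F1 mice (C57BL6J). Cas9 depended on Cre from the albumin promoter and was therefore directed to hepatocytes, and an AAV8 vector injected at 4 to 5 weeks of age carried a guide RNA that was either a control (sgCtrl, mice 5.1, 7.1 and 7.2) or directed at Prdx2 (sgPrdx2, mice 1.1, 1.3 and 3.2). Every mouse in both groups was also injected, 3 weeks after the vector, with diethylnitrosamine (DEN), a carcinogen of the liver, at 100 mg/kg. The CDAHFD, a high-fat diet that lacks choline, followed 1 week later for 6 months, and the mice are labelled as 8 months old. All livers analysed here had DEN, diet, Cre and Cas9, so that levels are those of a diseased liver throughout. The design aimed at hepatocytes and not at the macrophages, neutrophils, stellate and bile duct cells of the tissue, whose editing was not measured here. Hepatocytes that the vector missed keep Prdx2.

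Hepatocytes switch on acute phase genes when cytokines from macrophages reach them. IL-6 and related cytokines act through STAT3, IL-1 and TNF act through NF-kB, and C/EBP transcription factors bind many of the same promoters. Proteins whose plasma level rises are called positive acute phase proteins, and those that fall, with albumin and transthyretin as textbook cases, are called negative. In the mouse serum amyloid A is a major acute phase protein, whereas C-reactive protein is a minor one. Saa3 is also made outside hepatocytes, by macrophages among others, and Lcn2 is made by neutrophils, injured epithelium and hepatocytes.

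Promoter sequences of Saa1, Saa2, Saa3 and Lcn2 are shown because the first pair of genes moved together across livers whereas Saa3 and Lcn2 did not move with them. Each is the stretch from -250 to -1 before the RefSeq transcription start in GRCm38.p6, written 5' to 3' on the strand of the gene. Saa1 lies at chr7:46742981-46743230 on the minus strand, Saa2 at chr7:46751583-46751832 on the plus strand, Saa3 at chr7:46715677-46715926 on the minus strand and Lcn2 at chr2:32387740-32387989 on the minus strand. Capitals mark letters that match TTNCNNAA, a short form of the C/EBP motif, or GGNNNTTCC, a short form of the NF-kB motif, on either strand.
Saa1: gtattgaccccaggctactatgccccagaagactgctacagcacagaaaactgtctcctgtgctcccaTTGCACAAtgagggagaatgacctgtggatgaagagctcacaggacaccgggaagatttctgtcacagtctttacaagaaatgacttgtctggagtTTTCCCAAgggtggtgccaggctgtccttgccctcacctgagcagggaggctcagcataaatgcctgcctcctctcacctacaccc
Saa2: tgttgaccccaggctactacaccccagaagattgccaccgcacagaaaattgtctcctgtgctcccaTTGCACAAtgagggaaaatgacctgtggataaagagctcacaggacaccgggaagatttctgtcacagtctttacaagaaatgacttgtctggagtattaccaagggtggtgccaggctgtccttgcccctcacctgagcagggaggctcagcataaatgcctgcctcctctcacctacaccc
Saa3: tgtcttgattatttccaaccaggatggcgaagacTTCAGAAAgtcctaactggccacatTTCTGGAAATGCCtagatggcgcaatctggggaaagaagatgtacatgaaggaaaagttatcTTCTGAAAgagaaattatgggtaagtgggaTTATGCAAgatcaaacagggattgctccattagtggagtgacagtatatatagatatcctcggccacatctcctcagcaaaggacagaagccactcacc
Lcn2: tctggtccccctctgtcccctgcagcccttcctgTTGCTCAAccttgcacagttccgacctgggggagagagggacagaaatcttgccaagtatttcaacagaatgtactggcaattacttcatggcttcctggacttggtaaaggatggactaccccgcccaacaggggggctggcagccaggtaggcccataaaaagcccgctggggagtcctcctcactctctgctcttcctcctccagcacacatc

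The Saa1 and Saa2 promoters were 95.4% identical over 301 aligned positions, counted on the whole window around the start. Saa1 and Saa3 were 50.9% identical. The C/EBP letters TTGCACAA occurred at -182 to -175 in Saa1 and at -183 to -176 in Saa2, and a second match at -86 to -79 was found in Saa1 and not in Saa2. Saa3 held 4 C/EBP matches, and the NF-kB match at -187 to -179 overlapped the one at -191 to -184. Promoters of 8 of the 10 genes were in the RefSeq table, those of Orm1 and Hp were not, and all 8 held a C/EBP match, as did 40.7% of 32817 promoters of the same length. The NF-kB letters were in 1 of the 8, beside 18.5% of all promoters. The STAT3 letters TTCCNGGAA and the HNF1 letters GTTAATNAT were in 0 of the 8, beside 1.15% and 0.801% of all promoters. Such a match describes the letters only and is not a binding site.

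The libraries held 37462102 to 56865293 counts each, and the 10 genes took 1.31% to 1.86% of them. At this depth the limit that 3 counts set was 0.0555 to 0.0921 CPM (counts per 1000000 counts of the library), far under the level of every one of the 10 genes, so that the spread between mice and not counting error set the precision. Prdx2 itself had 109.3, 116.7 and 132.0 normalized CPM in the sgCtrl livers and 99.0, 111.9 and 149.2 in the sgPrdx2 livers, a log2 fold change of 0.01 (adjusted p = 0.983, edgeR quasi-likelihood test), so its RNA does not separate the groups. Small Cas9 deletions need not lower the RNA of their target, and the guide labels could not be checked from it. The hepatocyte marker genes were high in every library, with a summed level of 13076 to 15868 CPM in the sgCtrl livers and 24073 to 24982 CPM in the sgPrdx2 livers.

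The 10 genes spanned a wide range. Normalized CPM per kilobase of the principal transcript, the scale on which genes can be compared with each other, were highest for the heme scavenger Hpx (4477 ± 875 in sgCtrl and 6651 ± 1231 in sgPrdx2 livers, mean ± SD, n = 3 each) and the hemoglobin scavenger Hp (3640 ± 215 and 5037 ± 1108), whose ranges overlapped. Lcn2 and Orm1 followed, with Lcn2 at 743 ± 112 and Orm1 at 629 ± 184 per kilobase and overlapping ranges in sgCtrl livers. In sgPrdx2 livers Orm1 lay above Lcn2 without overlap, with Orm1 at 1066 ± 307 and Lcn2 at 447 ± 146. Orm2 (208 ± 110), Saa1 (155 ± 136) and Crp (127 ± 18.4) came next in sgCtrl livers and were within their spread of each other. Saa2 (63.0 ± 65.0) and Saa3 (55.8 ± 13.3) were likewise not apart, and Orm3 was lowest at 17.3 ± 11.9. The plot of levels by liver shows that the spread among livers of 1 group was itself unequal between genes.

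**Figure D1:**
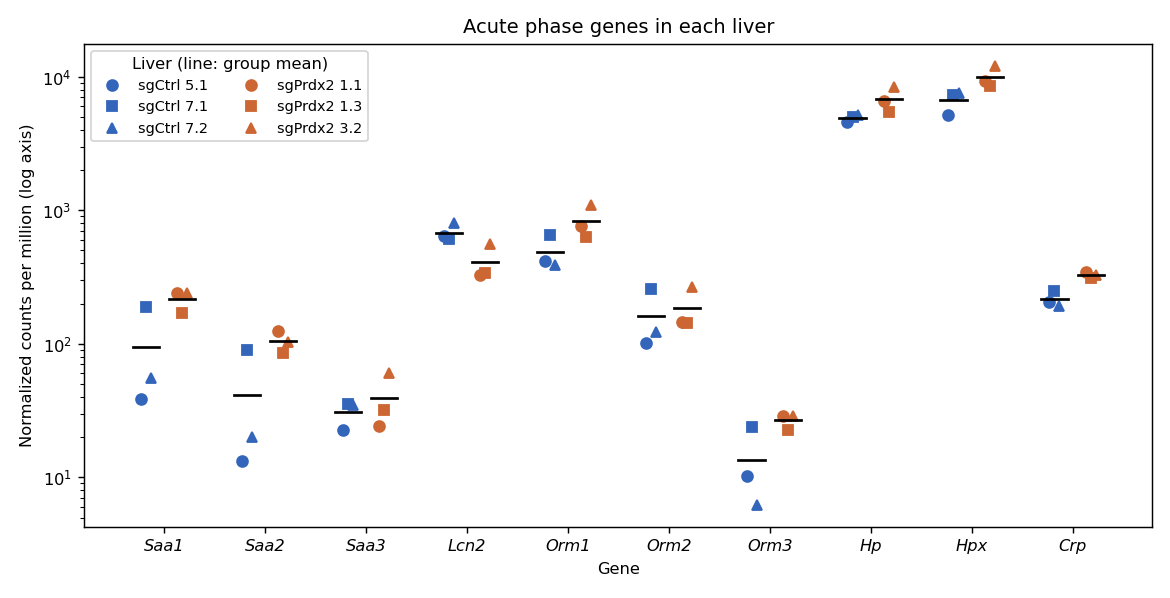
Normalized CPM of the 10 acute phase genes in each of the 6 livers, on a log axis; each symbol is a liver, blue for sgCtrl and orange for sgPrdx2, and the line is the group mean. sgCtrl liver 7.1 (blue square) lies near the sgPrdx2 livers for Saa1, Saa2 and Orm3, and all 3 sgPrdx2 livers lie below all sgCtrl livers for Lcn2.

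Between groups, 9 of the 10 genes were higher in sgPrdx2 than in sgCtrl livers and Lcn2 was lower, with a median log2 fold change of 0.59 beside -0.017 over all genes tested. None passed the test: 0 of 10 had a Benjamini-Hochberg adjusted p under 0.05 in edgeR's quasi-likelihood test, 6 had an unadjusted p under 0.05 beside 24.9% of all genes, and DESeq2 called 3 (Lcn2, Orm1 and Crp) beside 12.4% of all genes. Over all genes 3.33% were called, 1.79% higher and 1.54% lower in sgPrdx2 livers, so that a count of 0 among 10 genes is near that background. The groups did not overlap for 4 genes, Hp, Hpx and Crp being higher and Lcn2 lower in all 3 sgPrdx2 livers. Over all genes 16.7% were without overlap and higher and 17.5% without overlap and lower.

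Directions depend on the scaling for the genes near 0. The main scaling (TMM) gave 305 genes higher and 262 lower (53.8% of calls higher). Scaling to total counts alone shifted the median of all genes to -0.39 and gave 206 higher and 3041 lower calls (6.34% higher). Saa3 and Orm2 then turned from 0.33 and 0.20 to -0.062 and -0.19, and the other 8 genes kept their direction. Under that scaling the groups overlapped for every gene but Lcn2. Relative to the median of all genes under that scaling, Saa3 was at 0.32, Orm2 at 0.19, Saa1 at 1.21 and Lcn2 at -0.74. Leaving out sgCtrl 5.1, sgCtrl 7.2, sgPrdx2 1.1 or sgPrdx2 1.3 left 0 genes of the whole table called by edgeR, with 3114 to 3993 at an unadjusted p under 0.05. Calls anywhere in this table were thus not kept without any 1 of those 4 livers. Fewer livers alone reduce what can be called, so a special part of those livers is not shown.

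**Figure D2:**
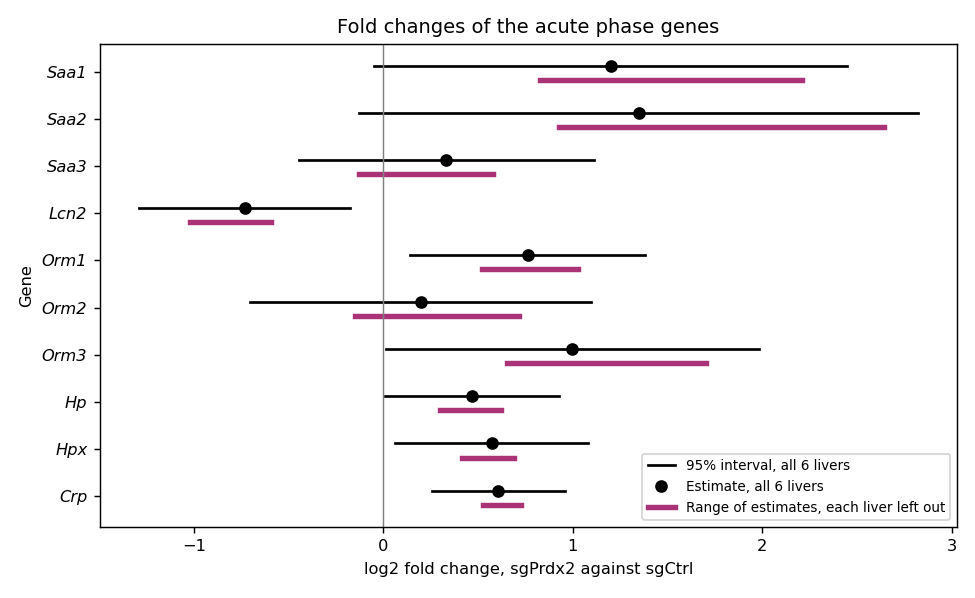
Log2 fold change of each acute phase gene, sgPrdx2 against sgCtrl livers, with its 95% interval (black, 3 livers against 3) and the range of the estimate when each liver was left out in turn (purple). The ranges for Saa3 and Orm2 cross 0, and the range for Lcn2 stays below 0, from -1.02 to -0.59.

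Saa1 and Saa2 encode the serum amyloid A proteins that hepatocytes release and that travel on high-density lipoprotein. Saa1 had 38.7, 189.8 and 55.2 normalized CPM in sgCtrl livers 5.1, 7.1 and 7.2 and 240.5, 169.8 and 241.4 CPM in sgPrdx2 livers 1.1, 1.3 and 3.2. Liver 7.1 was the only sgCtrl liver that reached the sgPrdx2 range, and there it lay above liver 1.3. Saa2 had 13.2, 89.9 and 20.2 CPM in sgCtrl livers and 125.0, 85.1 and 103.6 CPM in sgPrdx2 livers, with the same liver overlapping. The log2 fold changes were 1.20 for Saa1 (SE 0.54, 95% interval -0.05 to 2.45, edgeR adjusted p = 0.217) and 1.35 for Saa2 (SE 0.64, interval -0.13 to 2.82, adjusted p = 0.237). With all 6 livers they were the largest of the 10 log2 fold changes, and they did not pass the test. Without sgCtrl liver 7.1 both passed, with log2 fold changes of 2.21 (adjusted p = 0.0289) and 2.64 (adjusted p = 0.0263). With any other liver left out neither passed, and the estimates were lowest without sgCtrl 5.1, at 0.83 (adjusted p = 0.407) and 0.93 (adjusted p = 0.421).

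The sgCtrl livers themselves differed widely in Saa1 and Saa2. The highest liver exceeded the lowest 4.90-fold for Saa1 and 6.81-fold for Saa2 in the sgCtrl group, against 1.42-fold and 1.47-fold in the sgPrdx2 group. The SD of log2 CPM in sgCtrl livers was 1.20 for Saa1 and 1.43 for Saa2, above that of 99.5% and 99.7% of all genes tested, whose median SD was 0.155. In the sgPrdx2 livers the SDs were 0.29 and 0.28 beside a median of 0.21, so the wide spread was seen in one group. Liver 7.1 was at least 2-fold above the next highest sgCtrl liver for 4 of the 10 genes (Saa1 3.42-fold, Saa2 4.37-fold, Orm2 2.11-fold and Orm3 2.26-fold), and for 54 (0.317%) of all genes tested. The Saa and Orm genes lie in clusters on chromosome 7 and chromosome 4, and liver 7.1 was high for some genes of each. For Saa3 it was 1.02-fold and for Orm1 1.55-fold the next highest sgCtrl liver.

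Saa1 and Saa2 are close copies whose principal transcripts were 87.3% identical. Of the 560 stretches of 50 bases in the Saa1 transcript, 74 also occurred in Saa2, and in all 14.8% of them occurred in another gene. For Saa2 12.3% did so. How reads from such stretches were assigned is not given in the sources used here, and the split between the pair is therefore uncertain to that extent. Saa2 counts per 1000 Saa1 counts were 341, 474 and 366 in sgCtrl livers and 520, 501 and 429 in sgPrdx2 livers. The ratio was thus lowest in the 2 sgCtrl livers where both genes were low.

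Saa3, on chr7:46711998-46715700 beside the others, behaved differently. It had 22.5, 35.5 and 34.9 CPM in sgCtrl livers and 24.4, 31.9 and 60.9 CPM in sgPrdx2 livers. The groups overlapped, liver 7.1 did not stand out among the sgCtrl livers, and sgPrdx2 liver 3.2 alone was high. The log2 fold change was 0.33 (SE 0.34, 95% interval -0.44 to 1.11, edgeR adjusted p = 0.565), and it turned to -0.13 without liver 3.2.

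Within a liver, the share of each gene in the summed Saa counts needs no scaling between livers. Saa3 made up 30.2%, 11.3% and 31.7% of the Saa1, Saa2 and Saa3 counts in sgCtrl livers and 6.26%, 11.1% and 15.0% in sgPrdx2 livers. sgCtrl livers 5.1 and 7.2 were thus above all sgPrdx2 livers, and liver 7.1 was inside their range. The means were 24.4% ± 11.4 and 10.8% ± 4.38 (SD, n = 3 each), a difference of -13.6 percentage points. Saa2 took 21.5% ± 6.06 in sgCtrl and 29.1% ± 3.31 in sgPrdx2 livers, and Saa1 took 54.1% ± 5.39 and 60.1% ± 1.36. These shares are a description without a test.

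**Figure D3:**
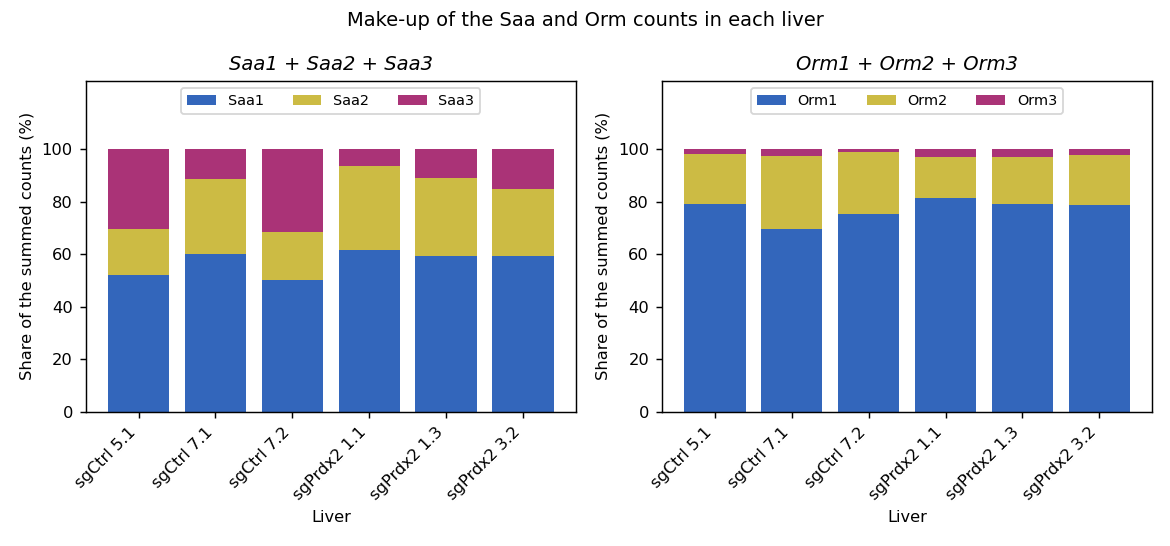
Share (%) of each gene in the summed counts of Saa1, Saa2 and Saa3 (left) and of Orm1, Orm2 and Orm3 (right) in each liver. Saa3 holds 30.2% and 31.7% in sgCtrl livers 5.1 and 7.2 and 6.26% to 15.0% in the sgPrdx2 livers, while Orm1 holds most of the Orm counts in every liver.

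The orosomucoids, or alpha-1-acid glycoproteins, are plasma carriers of basic drugs and lipids. Orm1, the most abundant of the 3 in every liver, had 420.0, 651.2 and 391.4 CPM in sgCtrl livers and 756.1, 631.4 and 1091.1 CPM in sgPrdx2 livers. sgCtrl liver 7.1 lay just above sgPrdx2 liver 1.3, and the groups otherwise kept apart. The log2 fold change of Orm1 was 0.76 (SE 0.27, 95% interval 0.14 to 1.38, edgeR adjusted p = 0.140), and DESeq2 called it (0.78, adjusted p = 0.0388). Orm3, the least abundant, had 10.2, 23.7 and 6.2 CPM in sgCtrl and 28.7, 22.7 and 28.7 CPM in sgPrdx2 livers. Its pattern was that of Saa1 and Saa2, with liver 7.1 alone in the sgPrdx2 range. The log2 fold change of Orm3 was 0.997 (SE 0.43, interval 0.01 to 1.98, edgeR adjusted p = 0.196), and 1.70 (adjusted p = 0.0378) without liver 7.1.

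Orm2 differed from its neighbours. It had 101.5, 259.0 and 122.7 CPM in sgCtrl livers and 144.4, 143.1 and 266.4 CPM in sgPrdx2 livers, so that each group held 1 high liver, 7.1 and 3.2. On the log2 scale the fold change of Orm2 was 0.20 (SE 0.39, 95% interval -0.70 to 1.095, edgeR adjusted p = 0.778). It was -0.049 without sgCtrl 5.1, -0.15 without sgPrdx2 3.2 and 0.72 without sgCtrl 7.1, and its direction is therefore not settled by these livers. As a share of the Orm counts, Orm2 took 19.1%, 27.7% and 23.6% in sgCtrl livers and 15.5%, 17.9% and 19.2% in sgPrdx2 livers, a difference in means of -5.90 percentage points. The highest sgPrdx2 share just passed the lowest sgCtrl share. Orm1 and Orm2 transcripts were 91.0% identical, and 20.4% of the 50-base stretches of Orm1 and 22.7% of those of Orm2 occurred in another gene, against 3.59% for Orm3, so the split between Orm1 and Orm2 is uncertain.

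Hp binds free hemoglobin and Hpx binds free heme, and both are secreted by hepatocytes and limit oxidative damage by iron. Hp (chr8:109575128-109579172) had 4576, 4971 and 5141 CPM in sgCtrl livers and 6533, 5420 and 8370 CPM in sgPrdx2 livers. All 3 sgPrdx2 livers were higher, liver 1.3 by little. Hp differed by a log2 fold change of 0.47 (SE 0.20, 95% interval 0.01 to 0.93, edgeR adjusted p = 0.193). Hpx (chr7:105591613-105600137) had 5203, 7335 and 7594 CPM in sgCtrl livers and 9359, 8506 and 12043 CPM in sgPrdx2 livers, again without overlap. Its log2 fold change was 0.57 (SE 0.22, interval 0.06 to 1.08, adjusted p = 0.163). No 50-base stretch of either principal transcript occurred in another gene, so these values do not depend on how shared reads were assigned. They do depend on the scaling: with total counts the log2 fold changes were 0.081 for Hp and 0.19 for Hpx, and the groups overlapped for both. Relative to the median of all genes, Hp was at 0.47 with total counts and 0.49 with TMM. Hpx was at 0.58 and 0.59, so these lower values came with the shift of all genes.

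Crp, a pentraxin that binds phosphocholine on microbes and dying cells, had the smallest spread of the 10 genes among sgPrdx2 livers. It had 205.8, 250.3 and 190.2 CPM in sgCtrl livers and 347.3, 311.7 and 325.0 CPM in sgPrdx2 livers. The groups did not overlap on this scale, and the SD of log2 CPM was 0.079 in sgPrdx2 and 0.204 in sgCtrl livers. The log2 fold change was 0.61 (SE 0.15, 95% interval 0.26 to 0.96, edgeR adjusted p = 0.0678), the smallest adjusted p of the 10 genes. DESeq2 called it (0.62, adjusted p = 0.00248), and with each liver left out in turn the estimate stayed between 0.53 and 0.73. Scaling to total counts lowered it to 0.24 (edgeR adjusted p = 0.260), and the groups then overlapped, as sgPrdx2 liver 3.2 (261.6 CPM) was below sgCtrl liver 7.1 (280.5 CPM). Relative to the median of all genes Crp was at 0.62 under either scaling.

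Lcn2 encodes lipocalin 2, which withholds iron from bacteria by binding their siderophores, and it was the 1 gene of the 10 with lower levels in sgPrdx2 livers. It had 636.6, 605.3 and 796.4 CPM in sgCtrl livers and 325.5, 338.6 and 562.7 CPM in sgPrdx2 livers. All sgPrdx2 livers were below all sgCtrl livers, and liver 3.2 came close to them. The log2 fold change was -0.73 (SE 0.24, 95% interval -1.29 to -0.17, edgeR adjusted p = 0.123). DESeq2 called it (-0.72, adjusted p = 0.0365), as did edgeR without liver 3.2 (-1.02, adjusted p = 0.0389). Without sgCtrl 7.2, sgPrdx2 1.1 or sgPrdx2 1.3 it was at -0.60, -0.59 and -0.60, with adjusted p = 0.289, 0.278 and 0.243. Scaling to total counts gave a call (-1.12, adjusted p = 0.0172), but relative to the median of all genes Lcn2 was at -0.74 there and at -0.72 with TMM, so the call came with the shift of all genes.

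Whole-liver RNA does not tell fewer cells of a type from less RNA per cell. All 12 macrophage markers were lower in sgPrdx2 livers (median log2 fold change -0.43). The groups overlapped for 8 of them, with Timd4 at -0.02, and 4 were lower without overlap, beside 17.5% of all genes. Past the test were 2, beside 1.54% of all genes called lower: Gpnmb (-1.08, edgeR adjusted p = 0.0373) and Mpeg1 (-0.82, adjusted p = 0.0394). The 12 summed to 4109 to 4804 CPM in sgCtrl and 2759 to 3556 CPM in sgPrdx2 livers. The 8 cholangiocyte markers were all lower as well, and the groups overlapped for 5 of them. EdgeR called 0, 3 had an unadjusted p under 0.05 and DESeq2 called 2, beside 24.9% and 12.4% of all genes. They summed to 1667 to 1894 and 1255 to 1423 CPM. Most of that sum was Spp1, with 1534, 1492 and 1707 CPM in sgCtrl and 1112, 1258 and 1080 CPM in sgPrdx2 livers. The 10 stellate and fibroblast markers (8 lower, 0 called by edgeR, 6 at an unadjusted p under 0.05, 3 called by DESeq2) summed to 2300 to 2659 and 1687 to 1770 CPM, and the same shares of all genes apply to its counts. The part of these cells in the lower Lcn2 level was not tested.

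Neutrophil transcripts were scarce in every liver, although Lcn2 is a neutrophil granule gene. Of 12 neutrophil markers 8 had enough reads to be tested, and edgeR and DESeq2 each called 0, with 5 at an unadjusted p under 0.05 in edgeR beside 24.9% of all genes. Of these 8, 6 were lower and 2 higher in sgPrdx2 livers (median log2 fold change -0.29). Elane alone was higher without overlap (1.09, edgeR adjusted p = 0.148, at most 0.369 CPM in any liver), beside 16.7% of all genes. Lower without overlap were 4 of the 8, beside 17.5% of all genes. Those 4 were the granule protein lactoferrin, Ltf (-1.68, edgeR adjusted p = 0.0788, at most 0.323 CPM in any liver), the collagenase Mmp8 (-1.10, adjusted p = 0.117), the chemokine receptor Cxcr2 (-0.98, adjusted p = 0.176) and the growth factor receptor Csf3r (-0.42, adjusted p = 0.107). All 12 together reached 24.1 to 32.3 CPM in sgCtrl and 21.1 to 24.7 CPM in sgPrdx2 livers. The defining marker Ly6g had 2 counts over all 6 livers, Camp 16, Mpo 29 and Ngp 48. S100a8, among the most abundant neutrophil RNAs, had 2.95, 5.05 and 5.50 CPM in sgCtrl and 3.05, 3.49 and 5.65 CPM in sgPrdx2 livers, with overlap. Levels of these markers do not give the share of Lcn2 RNA that neutrophils held. The part of neutrophils in the lower Lcn2 level was not tested.

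**Figure D4:**
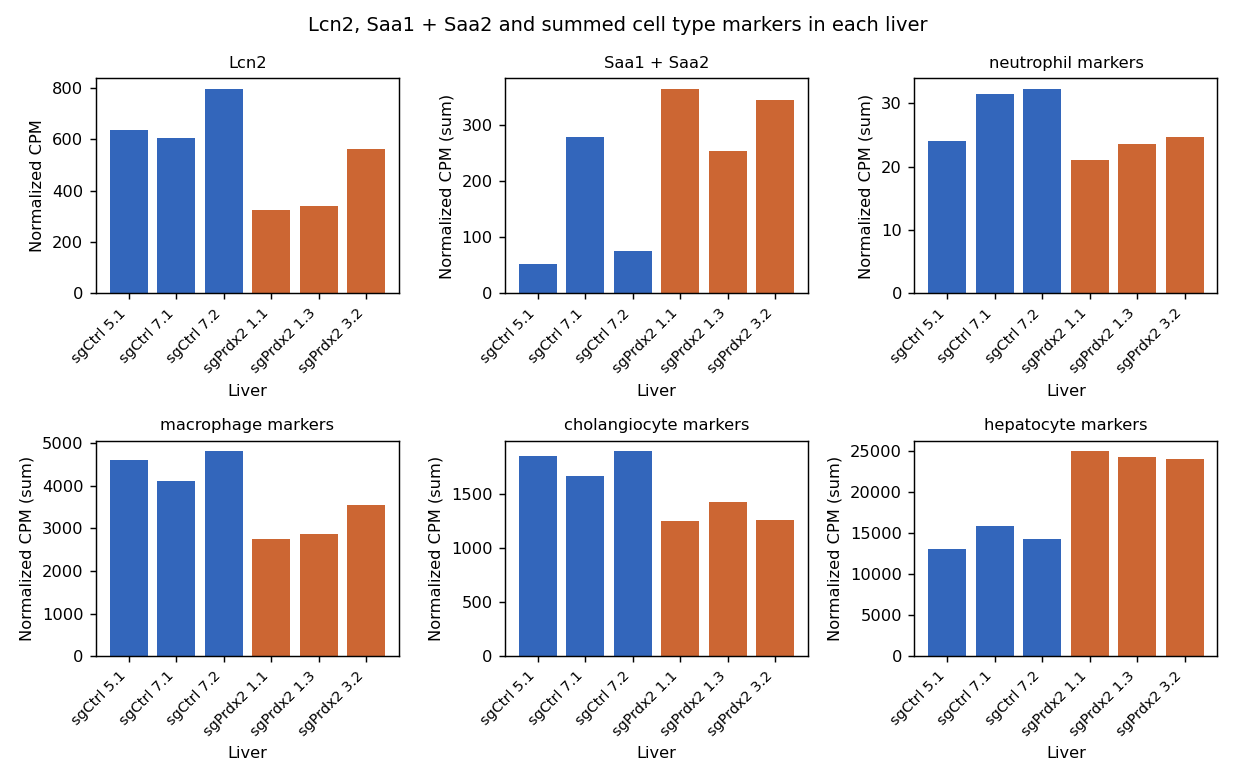
Normalized CPM of Lcn2, of Saa1 plus Saa2, and summed over neutrophil, macrophage, cholangiocyte and hepatocyte marker lists, in each liver (bars, each axis from 0; blue sgCtrl, orange sgPrdx2). Macrophage and cholangiocyte sums are lower and hepatocyte sums higher in all 3 sgPrdx2 livers, and neutrophil sums do not exceed 32.3 CPM. Most of the cholangiocyte sum is Spp1.

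Hepatocyte transcripts went the other way. All 12 hepatocyte markers were higher in sgPrdx2 livers. Their median log2 fold change was 0.73, and Apoh (0.97, edgeR adjusted p = 0.0358) and Cyp2e1 (0.96, adjusted p = 0.0409) were called. With scaling to total counts 10 of the 12 were higher. The part of the higher hepatocyte marker level in the higher levels of Saa1, Saa2, the Orm genes, Hp, Hpx and Crp was not tested. Among the remaining lists, 7 of 8 endothelial markers were lower (Pecam1 called, -0.77, adjusted p = 0.0423), as were 6 of 8 lymphocyte markers (Cd8a called, -0.84, adjusted p = 0.0486). Without sgCtrl 7.1 edgeR called 1 hepatocyte, 1 macrophage, 0 endothelial and 0 lymphocyte markers, and DESeq2 with all livers called 9, 4, 2 and 1. Over all genes and with all livers, edgeR called 1.79% higher and 1.54% lower, and DESeq2 called 12.4%.

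Set against albumin, another hepatocyte product, several differences changed sign. Hp counts per 1000 albumin counts were 77.2, 79.4 and 87.4 in sgCtrl livers and 51.1, 55.5 and 65.4 in sgPrdx2 livers. Crp counts per 1000 albumin counts were 3.47, 4.00 and 3.23 against 2.72, 3.19 and 2.54. Both genes were thus higher in TMM-normalized CPM and lower per albumin count in all 3 sgPrdx2 livers. Lcn2 counts per 1000 albumin counts were 10.7, 9.67 and 13.5 against 2.55, 3.47 and 4.40, a wider gap than in CPM. Saa1 had 0.653, 3.03 and 0.939 against 1.88, 1.74 and 1.89 per 1000, and the groups overlapped because of liver 7.1. Albumin itself had 59259, 62569 and 58814 CPM in sgCtrl and 127717, 97610 and 128017 CPM in sgPrdx2 livers (log2 fold change 0.97, edgeR adjusted p = 0.0472). That is above the 0.47 of Hp and the 0.61 of Crp. Their lower ratios and the wider Lcn2 gap thus follow from dividing by albumin and are not separate results.

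Other positive acute phase genes showed a mixed picture. Of 20 tested, 15 were higher and 5 lower (median log2 fold change 0.39). Without overlap 12 were higher and 1 lower, beside 16.7% and 17.5% of all genes. Past the test 3 rose, beside 1.79% of all genes called higher. These were Saa4 (1.07, SE 0.23, edgeR adjusted p = 0.0491), Fgb (0.83, SE 0.18, adjusted p = 0.0491), the fibrinogen beta chain, and Serpina3n (0.70, SE 0.15, adjusted p = 0.0491), a protease inhibitor. Saa4 is the constitutive member of the serum amyloid A family and not an inducible one, which leaves Fgb and Serpina3n as called inducible genes. Saa4 had 137.4, 208.4 and 124.2 CPM in sgCtrl livers and 342.4, 272.7 and 373.7 CPM in sgPrdx2 livers, and all 3 genes were without overlap. Hamp, the iron hormone hepcidin and an IL-6 target, was 1.16 higher on the log2 scale without passing (adjusted p = 0.0587). Apcs, the serum amyloid P pentraxin related to Crp, had 249.5, 174.3 and 501.2 CPM in sgCtrl and 157.8, 170.3 and 265.9 CPM in sgPrdx2 livers (-0.64, adjusted p = 0.338), and is named for that kinship after its values were seen. Under total-count scaling 10 of the 20 were higher and 10 lower, and 1 was called. The calls were 0 without sgPrdx2 3.2, 1 without sgCtrl 7.1, and 9 by DESeq2, which called 12.4% of all genes. Saa4, Fgb and Serpina3n stayed higher with total-count scaling.

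The negative acute phase genes, whose plasma proteins decline in inflammation, were higher with no exception among the 7 listed, and the groups overlapped for none of them under the main scaling. Their median log2 fold change was 0.95, and 3 were called: Ttr (1.35, SE 0.24, edgeR adjusted p = 0.0394), which carries thyroxine, Apoa1 (1.15, SE 0.23, adjusted p = 0.0466), the main protein of high-density lipoprotein, and albumin. Rbp4, the retinol carrier, was 0.84 higher (adjusted p = 0.0584). Over all genes 16.7% were higher without overlap and 1.79% were called higher by edgeR. All 7 stayed higher with total-count scaling. DESeq2 called 7 of them, beside 12.4% of all genes, and edgeR called 2 without sgPrdx2 3.2 and 0 without sgCtrl 7.1. The medians of the 3 lists were 0.59 for the 10 genes, 0.39 for the other positive genes and 0.95 for the negative genes with TMM, and 0.21, 0.015 and 0.55 with total-count scaling, under which the median of all genes was -0.39.

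**Figure D5:**
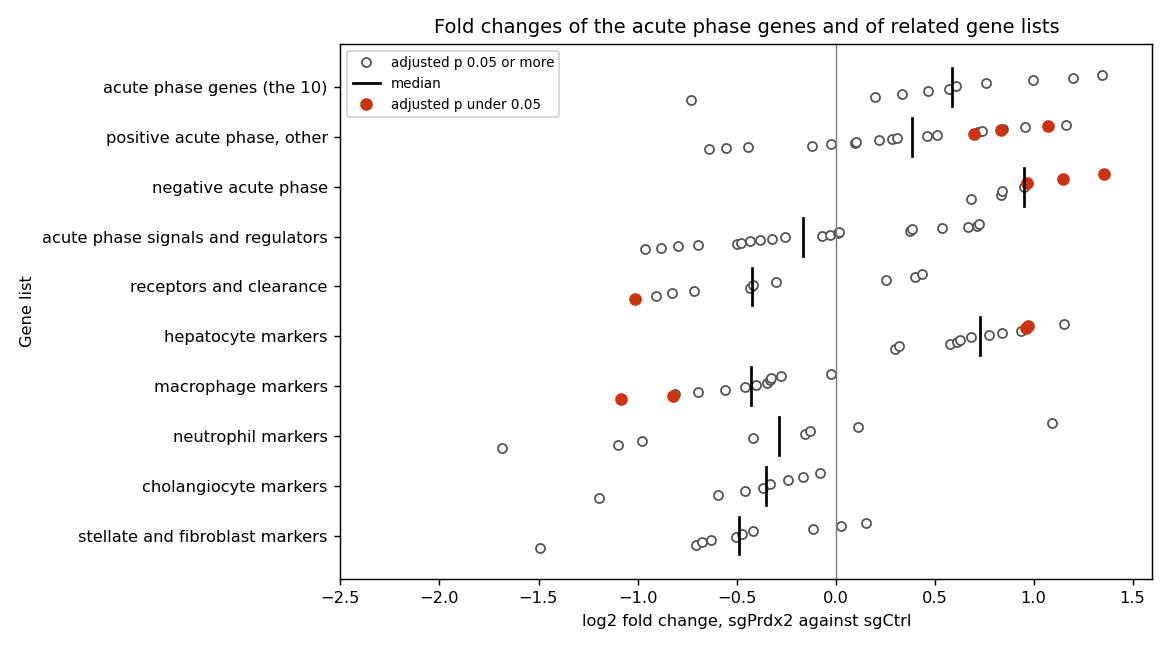
Log2 fold changes, sgPrdx2 against sgCtrl livers, of the 10 acute phase genes and of related gene lists, each circle a gene, filled red where the edgeR adjusted p is under 0.05, with the median as a line. The medians of the positive (0.39) and negative (0.95) acute phase lists and of the hepatocyte markers (0.73) lie above 0, and those of macrophage (-0.43) and cholangiocyte markers (-0.35) lie below it.

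As a list, the signals that drive these genes showed no common direction. The ligands in it, Tnf, Osm, Il1b and the untested Il6, had lower means in sgPrdx2 livers. Of 20 tested ligands, receptors and transcription factors, 8 were higher and 12 lower (median -0.16), edgeR called 0, 12 had an unadjusted p under 0.05 (24.9% of all genes did), and DESeq2 called 5 (12.4% of all genes). Without overlap 6 were higher and 7 lower, beside 16.7% and 17.5% of all genes. Il6 was barely detected and was not tested, with 23 counts over all 6 livers (6, 5 and 8 in sgCtrl and 2, 1 and 1 in sgPrdx2 livers). Osm was lower without overlap (log2 fold change -0.80, edgeR adjusted p = 0.101), and Il1b was lower with overlap (-0.38, adjusted p = 0.357). Tnf was lower, with 6.65, 5.76 and 4.97 CPM in sgCtrl and 3.71, 2.72 and 3.01 CPM in sgPrdx2 livers (log2 fold change -0.88, SE 0.20, edgeR adjusted p = 0.0553). Osmr, the oncostatin M receptor, was at -0.70 (adjusted p = 0.0587), Il1rap, a subunit of the IL-1 receptor, at 0.72 (adjusted p = 0.0659), and Cebpa at 0.67 (adjusted p = 0.0772). None of these passed.

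Among the factors that act on acute phase promoters, Stat3 was at -0.07 (SE 0.22, 95% interval -0.58 to 0.44, edgeR adjusted p = 0.866) and Cebpb at 0.54 (adjusted p = 0.111). Socs3, a feedback inhibitor that STAT3 induces, had 22.0, 38.4 and 31.5 CPM in sgCtrl and 38.5, 71.3 and 40.9 CPM in sgPrdx2 livers (0.71, adjusted p = 0.172). Liver 7.1 was the highest sgCtrl liver for Socs3 too, and also for Il1b, with 4.68, 8.92 and 7.59 CPM in sgCtrl and 5.72, 5.08 and 5.50 CPM in sgPrdx2 livers (-0.38, adjusted p = 0.357). For both genes liver 7.2 was closer behind it than for Saa1 or Saa2. The list was mixed in this respect. Liver 7.1 was highest of the sgCtrl livers for Stat3 and Cebpa among others, lowest for Il6, Osm and Cebpd, and in between for Tnf, Cebpb and Osmr. A link of these genes to the Saa1 and Saa2 levels of liver 7.1 was not tested. RNA levels of these factors do not measure their activity, which depends on phosphorylation and nuclear entry.

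Receptors and clearance partners of the acute phase proteins were mostly lower. Of 10 tested, 3 were higher and 7 lower (median -0.42). Without overlap 1 was higher and 7 were lower, beside 16.7% and 17.5% of all genes. EdgeR called 1 lower, beside 1.54% of all genes, and DESeq2 called 6, beside 12.4%. The heme-degrading enzyme Hmox1 fell past the test, with 124.7, 107.0 and 156.9 CPM in sgCtrl and 62.7, 70.9 and 58.9 CPM in sgPrdx2 livers (log2 fold change -1.01, SE 0.17, edgeR adjusted p = 0.0386). Hmox1 is also expressed by macrophages, whose markers were lower, and their part was not tested. Tlr4 (-0.82, adjusted p = 0.0555), Cd36 (-0.72, adjusted p = 0.0555) and Fcgr1 (-0.90, adjusted p = 0.0671), receptors found on innate immune cells, were lower without passing. Lrp1, through which hemopexin-heme is taken up, was at 0.26 (adjusted p = 0.323) and turned to -0.11 with total-count scaling. Slc22a17, a lipocalin 2 receptor, was at 0.40 (adjusted p = 0.272), and Cd163, the macrophage receptor for haptoglobin-hemoglobin, had 28 counts in all livers and was not tested.

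For each of the 10 genes the other genes with the most similar profile over the 6 livers were sought by Pearson's r of log2 CPM, as a description that shares the libraries and the group difference. C9, a terminal complement component made by hepatocytes, and Pxdc1 were among the closest to both Saa1 (r = 0.996 and 0.994) and Saa2 (r = 0.994 and 0.996). Mup16, of the multigene major urinary protein family, was also close to Saa1 (r = 0.996), and Scp2, a sterol carrier protein, to Saa2 (r = 0.998). For Lcn2 the closest were Sfn (r = 0.997), Tagln2 (r = 0.994) and Nfam1 (r = 0.992). For Orm1 they were Serpina3e-ps, Gpr180 and Mup9 (r = 0.992 each). Crp was closest to Gm12781 (r = 0.997), Car5a and Agfg2 (r = 0.996 each), and Hpx to Dbi (r = 0.998), Ebp and Hist1h2bc (r = 0.997 each). Hp was closest to Bcl7c (r = 0.995), Xrcc5 and 1110006O24Rik (r = 0.994 each), and Orm3 to Slc13a3 (r = 0.993), Gm38079 (r = 0.992) and Rnf32 (r = 0.989). Saa3 was closest to Cdkn3 (r = 0.995), Gm11400 and 3110062M04Rik (r = 0.992 each). Orm2 had the least similar partners, 2610005L07Rik, Mcm3ap and Gm11451, with r = 0.964, 0.958 and 0.951.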

How the data were processed

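Whole-liver RNA-Seq of 6 mice was used, 3 per group, grouped by the guide RNA in the labels. The authors deposited counts of reads per gene, as whole numbers without normalization, for 52459 genes; per the submitters' processing notes HISAT2, HTSeq, DESeq2 and GRCm38 were used, and versions, strandedness and the assignment of shared reads are not given in the sources used here. A second deposited table holds the authors' own comparison (mean signal, fold changes, errors and p-values) and was not used. In all, 0 rows named no gene.

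Analysis used edgeR 4.0.16 in R 4.3.3: filterByExpr (minimum count 10; 17032 genes), TMM, glmQLFit and glmQLFTest without covariates, Benjamini-Hochberg adjustment over all genes tested, calls at an adjusted p under 0.05 (two-sided). Standard errors were taken as the log2 fold change over the root of its F statistic. The biological coefficient of variation was 0.213. Each liver is 1 mouse, so p-values measure the spread between mice. CPM are normalized by TMM. Spread and similarity used log2(CPM + 0.5). Alternatives were RLE, upper-quartile and total-count scaling, DESeq2 1.42.0, 2 other filters and leaving out each liver. The fit was tested on simulated data.

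Transcripts and coordinates come from GENCODE M21 (GRCm38), promoters from RefSeq (GRCm38.p6), motifs were searched on both strands from 250 bases before to 50 after the start. Proteins were not analysed here. The genes, lists, motifs and tests were chosen with earlier results of these data known. Named were the 10 genes, Prdx2, called genes and up to 4 by p in each list, a few regulators and receptors, and the 3 genes most similar to each of the 10. Endothelial, lymphocyte and other cell type markers were textbook genes.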

Additional observations from a re-analysis of the deposited data

How the results depend on the processing

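Under 12 alternatives, Saa1, Saa2, Lcn2, Orm1, Orm3, Hp, Hpx and Crp kept their direction in all 12, Saa3 in 10 and Orm2 in 9. Total-count scaling called 3247 genes and 1 of the 10 (Lcn2, -1.12), and turned Saa3 to -0.062 and Orm2 to -0.19, the median of all genes moving with it. DESeq2 called 2118 genes and 3 of the 10 (Lcn2 -0.72, Orm1 0.78, Crp 0.62). Testing without a filter called 1128 genes and 0 of the 10, with 8 at an unadjusted p under 0.05. RLE (568), upper-quartile scaling (566) and at least 10 counts in every liver (614) called similar numbers to the 567 of the reported test and 0 of the 10. With each liver left out, 0 to 619 genes and 0 to 3 of the 10 were called by edgeR, with 3114 to 4436 genes at an unadjusted p under 0.05. DESeq2 was not run on these subsets. The log2 fold changes then ranged from 0.83 to 2.21 for Saa1, 0.93 to 2.64 for Saa2, -0.13 to 0.58 for Saa3, -1.02 to -0.59 for Lcn2, 0.52 to 1.03 for Orm1, -0.15 to 0.72 for Orm2, 0.65 to 1.70 for Orm3, 0.30 to 0.62 for Hp, 0.42 to 0.69 for Hpx and 0.53 to 0.73 for Crp. Saa3 turned to -0.13 without sgPrdx2 3.2, and Orm2 to -0.15 without sgPrdx2 3.2 and -0.049 without sgCtrl 5.1. The Saa3 share differed by -20.1 to -9.94 and the Orm2 share by -8.09 to -3.77 percentage points. The causes of these changes were not tested, and fewer livers alone reduce what can be called. No paired analysis was possible because the groups share no replicate numbers.

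Depth did not limit the 10 genes, each with at least 327 counts in every liver. Saa1 against Saa2 and Orm1 against Orm2 share sequence, and RNA says nothing of plasma protein.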
